A study of Mus musculus with 5 samples.

Results

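Voltage-gated calcium channels open when the membrane depolarises and let calcium into the cell. An alpha1 subunit forms the pore and sets the type of current, L-type for Cacna1c and Cacna1d and T-type for Cacna1g and Cacna1h, while alpha2delta subunits (Cacna2d1 to Cacna2d4) and cytoplasmic beta subunits (here Cacnb2 and Cacnb4) help to bring the pore to the membrane and tune its gating. In heart muscle the L-type current triggers calcium release and contraction, and T-type current is known from the embryonic heart and from pacemaker cells. ChIP-seq peaks at these 10 genes were followed in cardiac progenitor (CP) cells made from 46C mouse embryonic stem cells. The study recovered DNA with an antibody to ZHX1, a zinc finger and homeobox protein, and with one to hnRNPA1, an RNA-binding protein best known from splicing. It used unedited 46C-Ctrl cells for both antibodies and Zhx1-KO cells, edited by CRISPR/Cas9 with guides at the start and the stop site of Zhx1, for hnRNPA1. Each of these 3 groups was 1 library with 1 peak list, 2 input samples were not analysed here, and whether the Zhx1-KO cells were 1 clone was not given in the sources used here.

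The genes were chosen by their peaks in these same lists, so counts at them are a description and carry no test. A peak belonged to a gene when its deposited name was that gene, which held for 74 of 89451 peaks: 19 of 23244 for ZHX1, 11 of 14662 for control hnRNPA1 and 44 of 51545 for Zhx1-KO hnRNPA1. The lists give positions and names and no score or read count, which leaves the sequencing depth unknown, and the length of a list cannot be told apart from the depth or threshold behind it. Peaks also say nothing about expression, and the lists hold nothing that could check the CP label. Positions are GRCm38 throughout.

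Name and position often parted. Of 123 peaks that lay within the annotated bodies of the 10 genes (GENCODE M21), 60 carried the name of the gene and 63 the name of another, mostly a neighbour or a transcript inside the gene. Another 14 peaks carried a member's name and lay outside it. By name Cacna2d2 had no ZHX1 peak and Cacna1h had no peak in any list. By position Cacna2d2 held 1 ZHX1 peak, named Tmem115, and Cacna1h held 1 Zhx1-KO hnRNPA1 peak, named Tpsg1. Both countings are therefore given below.

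**Figure D1:**
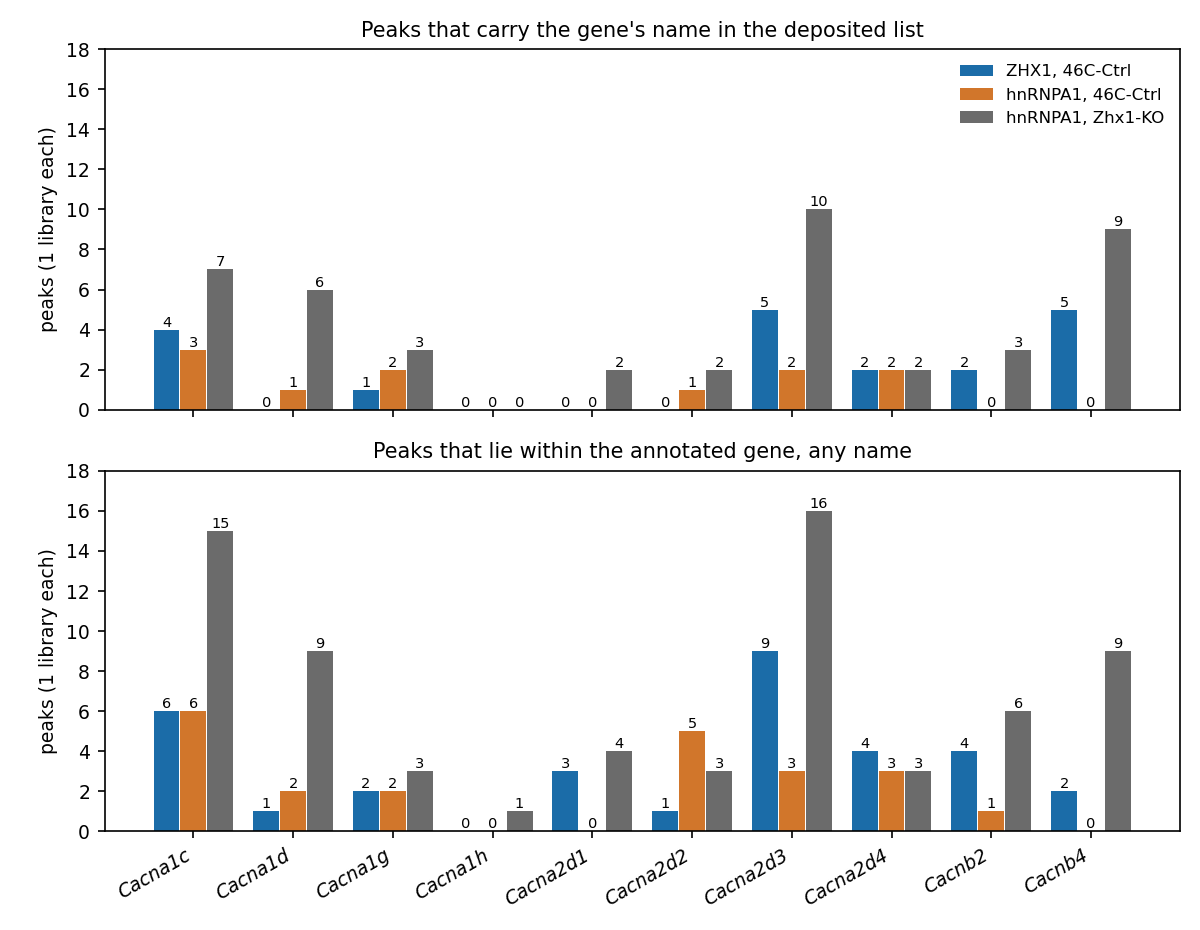
Peaks per gene in each list (y axis, number of peaks from 1 library each) counted by deposited name (top) and by position within the annotated gene (bottom), with 1 bar per list. Cacna1c and Cacna2d3 hold the most peaks by position, 27 and 28 over the 3 lists, and Cacna1h holds 1.

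The sequences below are those at which peaks of different lists met. They were read from GRCm38 on the strand of the gene, except the Cacnb4 stretch, which is on the plus strand, and the Cacna1c promoter comes from the RefSeq promoter table for the same assembly. Capitals mark TAGGG (which hnRNPA1 prefers in RNA, with U for T), CCAAT (the NF-Y site), GATA, or a G-quadruplex motif (4 stretches of 3 or more G, spaced by 1 to 7 bases), each on either strand, so that the reverse complements (CCCTA for the first, for example) and runs of C also stand in capitals. The first is the ZHX1 peak that lay wholly inside a control hnRNPA1 peak in a Cacna2d2 intron (chr9:107507862-107508089, plus strand), with 2 TAGGG motifs.
Cacna2d2 ZHX1 peak: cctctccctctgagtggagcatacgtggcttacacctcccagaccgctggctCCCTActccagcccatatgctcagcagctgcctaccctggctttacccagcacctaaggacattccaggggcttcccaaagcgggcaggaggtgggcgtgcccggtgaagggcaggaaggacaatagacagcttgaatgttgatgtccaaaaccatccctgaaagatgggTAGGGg
The next 3 lie at an internal promoter of Cacna1c: the ZHX1 peak (chr6:119108826-119109053, minus strand), the promoter itself up to the first exon (chr6:119108574-119108745, minus strand) and the Zhx1-KO hnRNPA1 peak (chr6:119107066-119107294, minus strand). The ZHX1 peak held 1 G-quadruplex motif, the promoter held 2, and the Zhx1-KO peak held none of the motifs searched. In this search a spacer could be any base, G or C included, so a long run could count as several stretches. That was so in the ZHX1 peak, where the match is 2 runs of C split by an A.
Cacna1c ZHX1 peak: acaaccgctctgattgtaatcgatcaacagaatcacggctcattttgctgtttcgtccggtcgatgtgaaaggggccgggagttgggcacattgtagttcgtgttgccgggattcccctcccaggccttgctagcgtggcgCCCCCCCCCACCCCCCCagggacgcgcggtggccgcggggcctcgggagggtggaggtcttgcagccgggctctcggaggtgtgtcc
Cacna1c internal promoter: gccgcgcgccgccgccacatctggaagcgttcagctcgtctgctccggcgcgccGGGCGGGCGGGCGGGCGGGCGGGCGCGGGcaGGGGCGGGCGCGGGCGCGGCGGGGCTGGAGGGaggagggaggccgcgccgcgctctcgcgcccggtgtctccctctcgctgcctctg
Cacna1c Zhx1-KO hnRNPA1 peak: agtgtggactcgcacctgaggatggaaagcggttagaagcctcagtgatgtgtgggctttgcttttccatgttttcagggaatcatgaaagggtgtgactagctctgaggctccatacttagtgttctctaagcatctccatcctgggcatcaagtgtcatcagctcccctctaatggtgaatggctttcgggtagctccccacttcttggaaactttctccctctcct
The following 2 are neighbouring peaks in Cacna1g, of ZHX1 (chr11:94445774-94446001, minus strand) and of control hnRNPA1 (chr11:94446299-94446529, minus strand).
Cacna1g ZHX1 peak: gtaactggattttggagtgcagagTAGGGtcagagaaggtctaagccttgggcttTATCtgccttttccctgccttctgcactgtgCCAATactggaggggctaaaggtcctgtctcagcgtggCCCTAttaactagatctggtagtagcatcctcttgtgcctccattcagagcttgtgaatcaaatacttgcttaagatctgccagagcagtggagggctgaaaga
Cacna1g control hnRNPA1 peak: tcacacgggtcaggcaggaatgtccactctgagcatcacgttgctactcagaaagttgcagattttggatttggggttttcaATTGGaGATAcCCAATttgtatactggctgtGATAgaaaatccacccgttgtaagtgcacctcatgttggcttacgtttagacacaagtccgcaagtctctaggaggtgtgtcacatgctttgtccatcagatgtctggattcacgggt
The last is the stretch that a ZHX1 peak and a Zhx1-KO hnRNPA1 peak named Cacnb4 had in common (chr2:52698607-52698828, plus strand). It holds none of the motifs, and a unit of 54 bases recurs along it.
Cacnb4 shared stretch: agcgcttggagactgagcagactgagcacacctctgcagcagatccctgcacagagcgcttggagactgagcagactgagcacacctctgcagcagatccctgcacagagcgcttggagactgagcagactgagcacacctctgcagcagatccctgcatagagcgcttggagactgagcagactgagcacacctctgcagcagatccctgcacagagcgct

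Counted by name, 6 of the 10 genes had a ZHX1 peak, 6 carried one of control hnRNPA1 and 9 one of Zhx1-KO hnRNPA1. Over all 21992 protein-coding genes these shares were 40.4%, 31.1% and 57.6%. Peaks of both control lists were named for 4 members (Cacna1c, Cacna1g, Cacna2d3 and Cacna2d4), and the same 4 also had Zhx1-KO peaks, against 19.9% and 17.9% of all protein-coding genes. Counted by position, 9, 7 and 10 members held a peak of ZHX1, control hnRNPA1 and Zhx1-KO hnRNPA1, and 7 held peaks of both control lists and of all 3. The shares over all protein-coding genes were 28.0%, 20.4%, 42.2%, 11.0% and 9.22%. Nothing is read from these member counts, since peaks chose the genes.

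The members are long genes, with a median length of 317 kb against 17.3 kb over all protein-coding genes, and a long gene collects more peaks. Per 100 kb of gene, the members together held 0.963 ZHX1 peaks, 0.662 control hnRNPA1 peaks and 2.08 Zhx1-KO hnRNPA1 peaks. The 4271 protein-coding genes at least as long as the shortest member held 0.856, 0.561 and 1.91, and all protein-coding genes 0.995, 0.640 and 2.13. Density by position was thus near that of other genes in each list. Within the group it varied widely, from no control hnRNPA1 peak in Cacna1h, Cacna2d1 and Cacnb4 to 3.85 per 100 kb in Cacna2d2.

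Cacna1c, the pore of the main L-type channel of heart muscle (chromosome 6, 118587240 to 119196418, minus strand, 609 kb), had 4 peaks of ZHX1, 3 of control hnRNPA1 and 7 of Zhx1-KO hnRNPA1 by name. By position it held 6, 6 and 15, and 57 of 21992 protein-coding genes held more peaks over the 3 lists, with no allowance for length. Per 100 kb it held 0.985, 0.985 and 2.46, against 0.995, 0.640 and 2.13 over all protein-coding genes. Of these 27 peaks, 13 were named Cacna1c, 8 carried the name of 4931430N09Rik, a transcript inside the gene, 4 that of Ankrd26 and 2 that of Dcp1b. All but 2 lay in introns: a Zhx1-KO hnRNPA1 peak lay over coding sequence (118630331 to 118630668) and a control hnRNPA1 peak over a 5′ untranslated exon. Neighbouring peaks of any list stood a median of 17.1 kb apart. The closest pair of one list was 2 Zhx1-KO hnRNPA1 peaks, 408 bp apart and 209 kb into the gene.

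No peak covered the outermost start of Cacna1c. The nearest Zhx1-KO hnRNPA1 peak stood 7.97 kb upstream of it, in Dcp1b. The nearest peaks of ZHX1 and control hnRNPA1 were 26.5 and 33.2 kb away, both upstream and named Cacna2d4. Peaks met instead at an internal start 87.8 kb into the gene (119108573), at or just downstream of which 12 annotated transcripts begin. There the ZHX1 peak lay 253 to 480 bp upstream and the control hnRNPA1 peak 228 to 467 bp downstream. The Zhx1-KO hnRNPA1 peak lay 1279 to 1507 bp downstream. Measured to the nearest start of any Cacna1c transcript, the control hnRNPA1 peak lay over one (119108189). The Zhx1-KO hnRNPA1 peak stood 681 bp from another (119107975). All 3 peaks fell within 1988 bp and none overlapped. Between the ZHX1 and the control hnRNPA1 peak lay 480 bp, and between the hnRNPA1 peaks of the control and the Zhx1-KO library 811 bp. The ZHX1 peak was 64.5% GC, the hnRNPA1 peaks were 48.8% and 49.8% GC, and the promoter stretch between the ZHX1 peak and the exon, printed above, was 83.1% GC. Each peak was single-copy, meaning that the median 32-base word in it occurs once in the genome. The ZHX1 peak was 228 bp wide, the smallest width in its list, as were the ZHX1 peaks printed above for Cacna2d2 and Cacna1g. That width was shared by 16 of 32 ZHX1 peaks within the members and 8456 of 23244 in the whole list. Without peaks of the smallest width, these meetings of ZHX1 and control hnRNPA1 would not be seen.

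**Figure D2:**
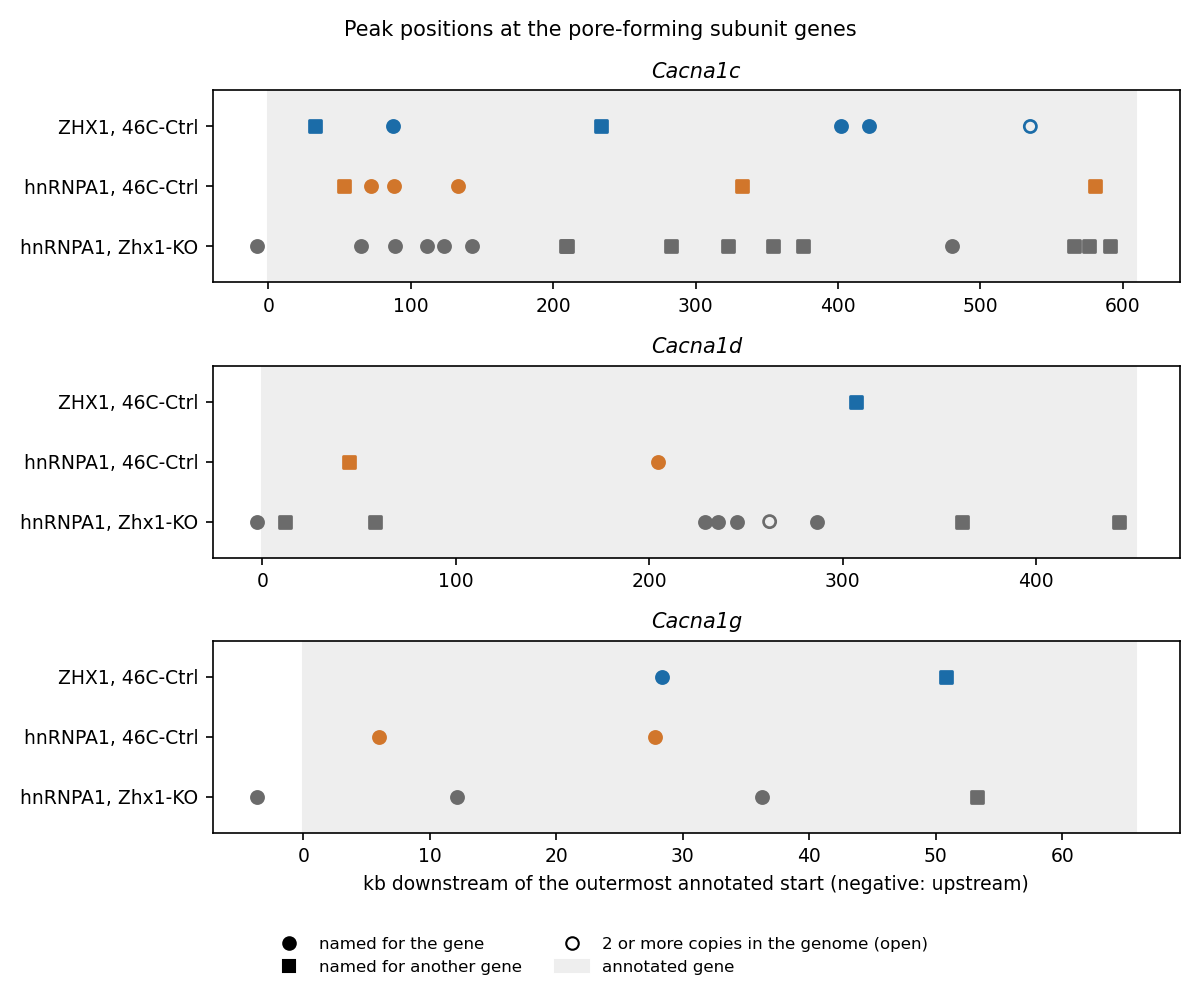
Peak positions at Cacna1c, Cacna1d and Cacna1g (x axis, kb downstream of the outermost annotated start), 1 row per list and 1 symbol per peak. Circles carry the gene's own name, squares another name, open symbols lie in sequence with 2 or more copies, and grey marks the annotated gene. At Cacna1c the rows meet around the internal start at 87.8 kb, and the start of the gene is free of peaks.

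**Figure D3:**
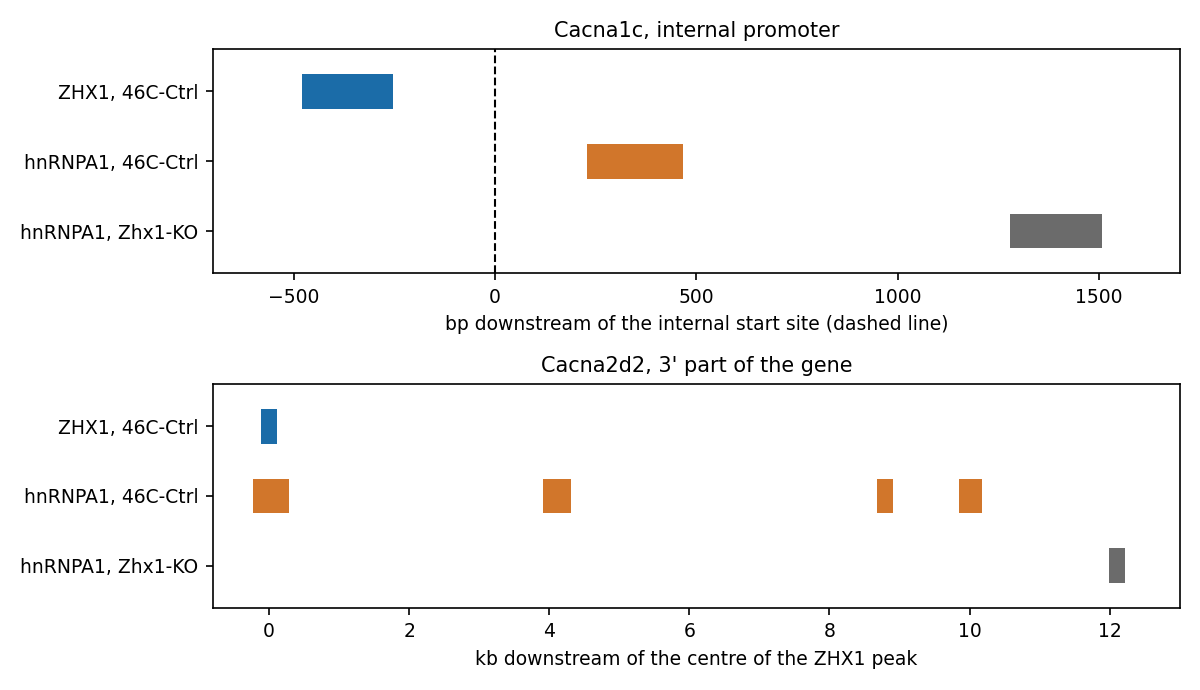
Close-up of the Cacna1c internal promoter (top, bp from the internal start) and of the 3′ part of Cacna2d2 (bottom, kb from the centre of the ZHX1 peak), with 1 row per list and bars drawn to the width of each peak. At Cacna1c the peaks stand side by side without overlap, and at Cacna2d2 the 228 bp ZHX1 peak lies inside the first of 4 control hnRNPA1 peaks.

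Cacna1d, the other L-type pore of the group and known from pacemaker cells (chromosome 14, 30039939 to 30491455, minus strand), had no ZHX1 peak, 1 control hnRNPA1 peak and 6 Zhx1-KO hnRNPA1 peaks by name. By position it held 1, 2 and 9. Its Zhx1-KO hnRNPA1 peaks gathered in the middle, with 5 of them between 229 and 287 kb into the gene, and its control hnRNPA1 peaks lay outside that stretch, at 45.0 and 204 kb. Near the start of the gene, a Zhx1-KO hnRNPA1 peak (30479708 to 30479931) stood 29 bp from a start of Dcp1a, which overlaps Cacna1d. A further peak named Cacna1d lay 2.66 kb upstream of the outermost start, also in Dcp1a.

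Cacna1g, a T-type pore (chromosome 11, 94408391 to 94474198, minus strand), is short for the group at 65.8 kb and carried 1, 2 and 3 peaks by name. By position it held 2, 2 and 3, which gave 3.04, 3.04 and 4.56 peaks per 100 kb. The Zhx1-KO density was the highest among the members. The ZHX1 and control hnRNPA1 peaks printed above lay in introns with 297 bp between them, the closest pair of these lists in the group other than the overlap in Cacna2d2. Of the Zhx1-KO hnRNPA1 peaks, 2 lay over coding sequence and a further one, named Cacna1g, stood 3.52 kb upstream of the gene. Cacna1h, the second T-type pore (chromosome 17, 25374285 to 25433783, minus strand, 59.5 kb), held the single peak named above, an intronic Zhx1-KO hnRNPA1 peak at 25394612 to 25394973.

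Among the alpha2delta genes, Cacna2d2 lies on chromosome 9 (107399612 to 107529343, plus strand, 130 kb). It was the only one in which control hnRNPA1 peaks outnumbered both other lists by position, which did not hold by name. By name it had none of ZHX1, 1 of control hnRNPA1 and 2 of Zhx1-KO hnRNPA1, and by position 1, 5 and 3. The ZHX1 peak and the control hnRNPA1 peak around it (107507745 to 107508262) shared 228 bp and lay in an intron, 1018 bp from an internal start of a non-coding transcript at the nearer edge. This was the 1 overlap between ZHX1 and control hnRNPA1 among the peaks in the 10 genes, and the nearest Zhx1-KO hnRNPA1 peak stood 11.7 kb from this control hnRNPA1 peak.

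A run of 3 further control hnRNPA1 peaks followed in Cacna2d2, at 107511886 to 107512285 over coding sequence and at 107516661 to 107516884 and 107517818 to 107518152 in introns. The 4 peaks spanned 10408 bp and were all single-copy. In the whole control hnRNPA1 list, 42 of 14662 peaks (0.286%) stood in runs of 4 that tight, and 9 of the 42 were single-copy, of which 4 were those of Cacna2d2. The other single-copy ones stood in runs named for Oas1e (3) and H1fx (2), whose remaining peaks were multi-copy. The run was found by looking through the members, so its rarity is a description. The 3 Zhx1-KO hnRNPA1 peaks of Cacna2d2 lay elsewhere, at 8.21, 22.2 and 120 kb into the gene.

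Cacna2d1, the alpha2delta subunit of heart and skeletal muscle (chromosome 5, 15934691 to 16374511, plus strand, 440 kb), had only 2 Zhx1-KO hnRNPA1 peaks by name. By position it held 3 of ZHX1, none of control hnRNPA1 and 4 of Zhx1-KO hnRNPA1, and 5 of these 7 were named for Hgf, which lies downstream of it. The first peak of any list stood 133 kb into the gene. Of its peaks, 3 of 4 from Zhx1-KO hnRNPA1 and 1 of 3 from ZHX1 lay in multi-copy sequence.

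Cacna2d3 (chromosome 14, 28904943 to 29721864, minus strand, 817 kb) is the longest gene of the group and held the most peaks. It had 5, 2 and 10 by name and 9, 3 and 16 by position, those within it all in introns. Of 21992 protein-coding genes, 48 held more over the 3 lists, with no allowance for length. Per 100 kb it held 1.10, 0.367 and 1.96, against 0.995, 0.640 and 2.13 over all protein-coding genes. Of the 28 peaks in it, 14 were named Cacna2d3 and 14 Lrtm1, a gene within its far part. Another 3 Zhx1-KO hnRNPA1 peaks with its name stood 38.1, 62.4 and 79.3 kb upstream. The Zhx1-KO hnRNPA1 peaks were closely set in places, at a median of 12.3 kb from one to the next, whereas the ZHX1 peaks stood a median of 65.4 kb apart. The whole lists hold 51545 and 23244 peaks, and the part of list length in this spacing was not tested. The nearest approach of different lists was 511 bp, between a ZHX1 and a Zhx1-KO hnRNPA1 peak in a repeat, with median word counts of 8908 and 10588.

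Cacna2d4, known from the retina (chromosome 6, 119236526 to 119352407, plus strand, 116 kb), lies only 40.1 kb from Cacna1c. It had 2 peaks in each list by name and 4, 3 and 3 by position. It was the 1 member with a peak of every list that carried its name and lay upstream of its outermost start. These peaks lie in the gap between the 2 genes, and those of ZHX1 and control hnRNPA1 are also the nearest to the outermost start of Cacna1c, given above. The Zhx1-KO hnRNPA1 peak (119235761 to 119236126) stood 400 bp upstream, the control hnRNPA1 peak 6.63 kb and the ZHX1 peak 13.5 kb upstream at its centre. A second ZHX1 peak lay 2.18 kb downstream at its centre. No other member had a peak of any list within 2 kb of its outermost start. Of the 10 peaks in the gene, 7 were named for Lrtm2, a gene inside it, and all were single-copy.

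**Figure D4:**
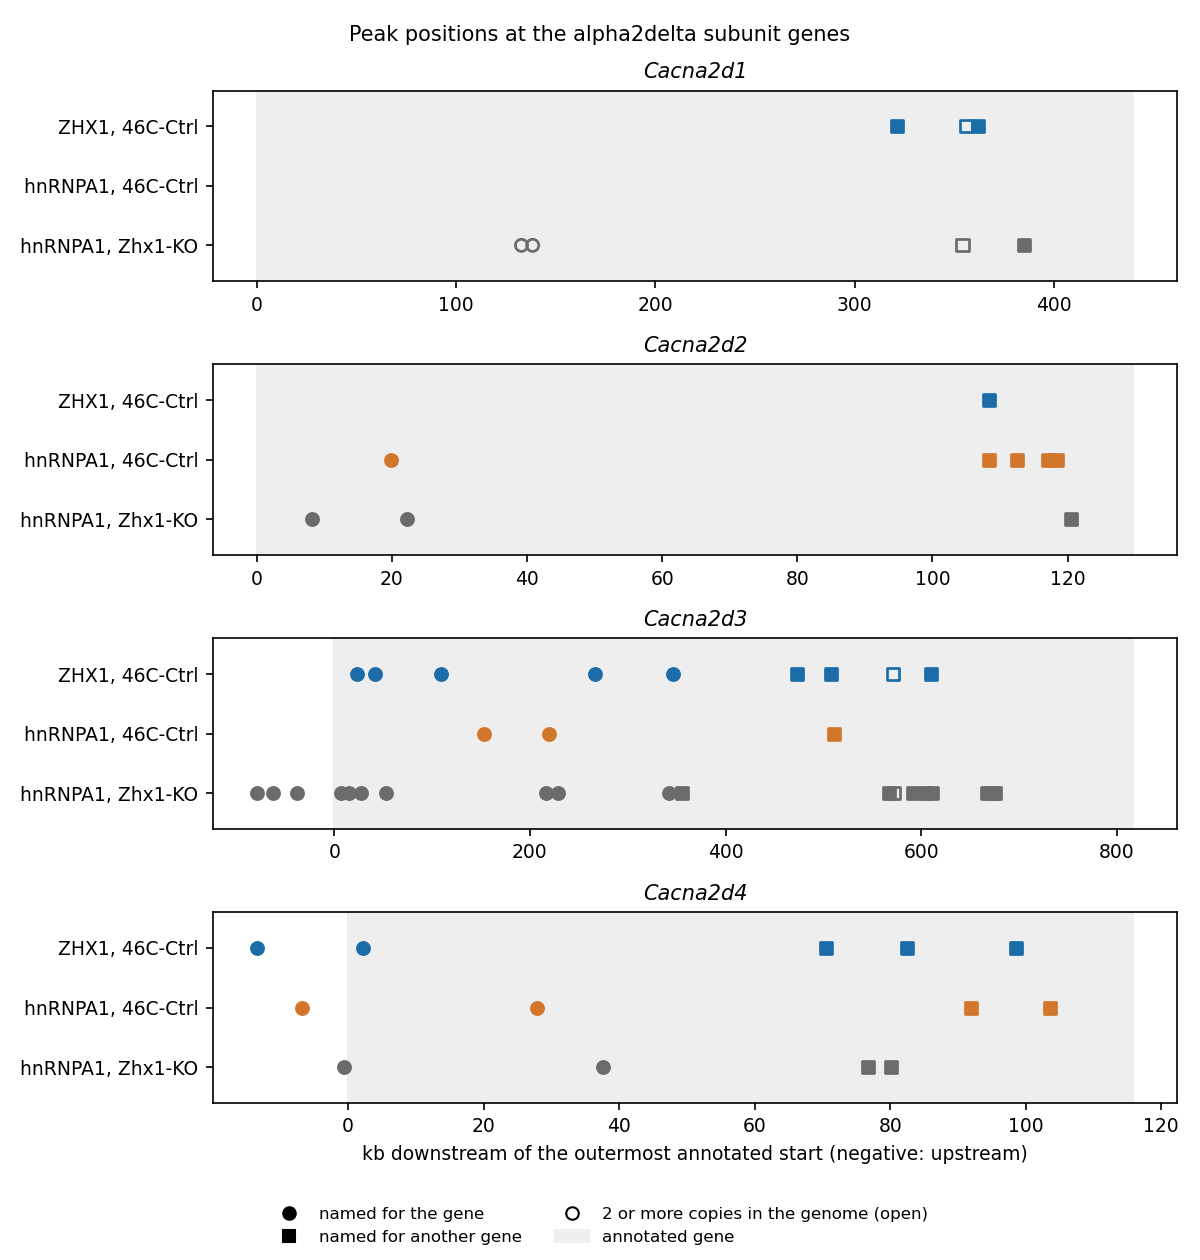
Peak positions at the 4 alpha2delta genes (x axis, kb downstream of the outermost annotated start), 1 row per list, with circles for the gene's own name, squares for another name and open symbols for sequence with 2 or more copies. Cacna2d2 shows the run of 4 control hnRNPA1 peaks between 108 and 118 kb, and Cacna2d3, the longest gene, shows Zhx1-KO hnRNPA1 peaks inside and upstream of the gene.

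The beta subunit genes differed in the sequence under their peaks. Cacnb2, the main beta subunit of heart muscle (chromosome 2, 14603088 to 14987908, plus strand, 385 kb), had 2, 0 and 3 peaks by name and 4, 1 and 6 by position, all in introns. All 6 of its Zhx1-KO hnRNPA1 peaks were multi-copy, with median word counts of 2, 2, 4, 4633, 10747 and 16793, against 1 of its 4 ZHX1 peaks, with a count of 930, and 0 of its 1 control hnRNPA1 peak. Over the other members, 6 of 63 Zhx1-KO hnRNPA1 peaks within the gene were multi-copy. Of these, 3 lay in Cacna2d1, which held 4 Zhx1-KO hnRNPA1 peaks. The Cacnb2 pattern was noticed in the data and rests on 6 peaks of 1 library.

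Cacnb4, a beta subunit best known from neurons (chromosome 2, 52428320 to 52676831, minus strand, 249 kb), had 5, 0 and 9 peaks by name and 2, 0 and 9 by position. The 11 peaks inside it were all single-copy. The nearest control hnRNPA1 peak to its start was 133 kb away, while its Zhx1-KO density of 3.62 per 100 kb was the second highest of the group. Of the peaks with its name, 4 lay upstream in an intron of Stam2, an endosomal sorting adaptor gene: ZHX1 peaks at 52698086 to 52698354 and 52698525 to 52698828, and Zhx1-KO hnRNPA1 peaks at 52697162 to 52697845 and 52698607 to 52698863. They stood in a tandem array of 2.63 kb (52696405 to 52699035) with a period of 54 bp, to which 88.7% of the distances between recurring words belonged, and their median word counts were 42 to 44. Of these peaks, 1 of ZHX1 and 1 of Zhx1-KO hnRNPA1 shared 222 bp, printed above, the 1 overlap between any lists among the 74 named peaks.

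**Figure D5:**
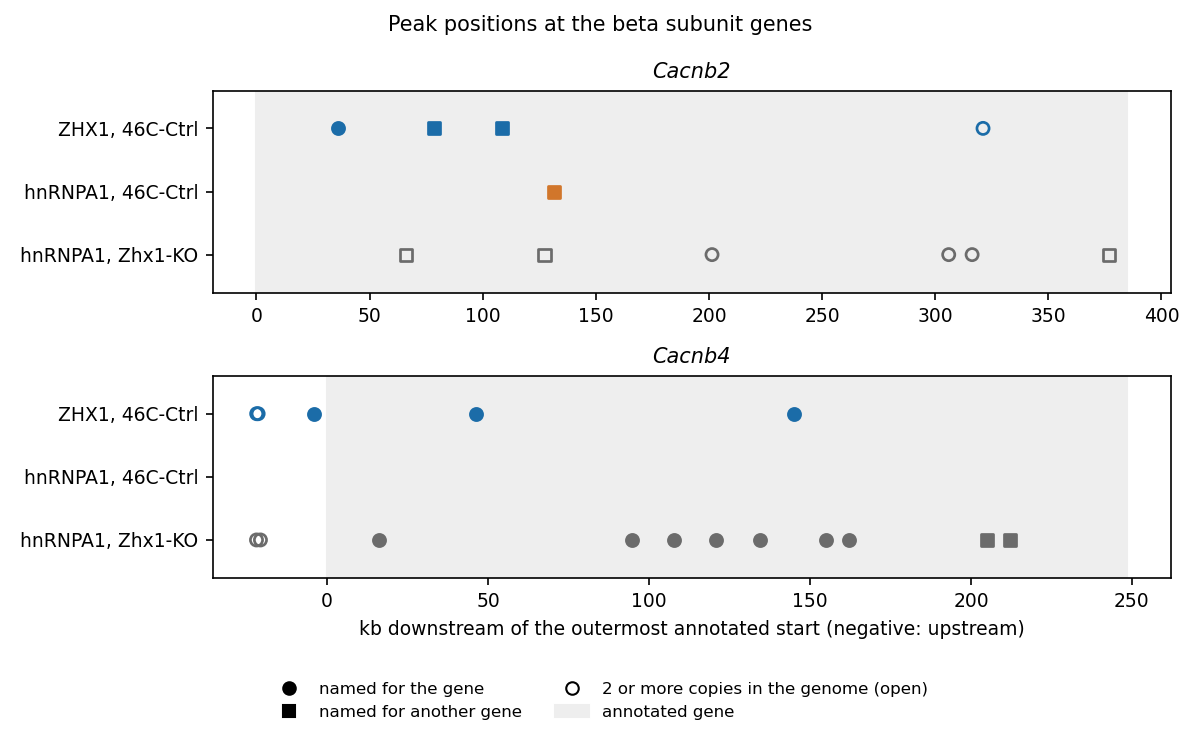
Peak positions at Cacnb2 and Cacnb4 (x axis, kb downstream of the outermost annotated start), 1 row per list, with circles for the gene's own name, squares for another name and open symbols for sequence with 2 or more copies. All 6 Zhx1-KO hnRNPA1 peaks of Cacnb2 are open, and those inside Cacnb4 are filled.

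Across the group, hnRNPA1 peaks of the control and the Zhx1-KO library did not coincide. Of the 22 control hnRNPA1 peaks within the 10 genes, 0 overlapped a Zhx1-KO hnRNPA1 peak (Wilson 95% interval 0 to 14.9%). The share was 3.13% over all peaks within protein-coding genes and 4.41% over the whole list, so the lists rarely coincided anywhere. For ZHX1, 1 of 32 peaks within the members overlapped a control hnRNPA1 peak (3.13%, interval 0.554 to 15.7%), against 2.08% within protein-coding genes. Zhx1-KO gave 69 of the 91 hnRNPA1 peaks within the members, or 75.8% (interval 66.1 to 83.5%), and 44 of 55 by name, or 80.0% (67.6 to 88.4%). Over the whole hnRNPA1 lists the share was 77.9%. Nothing is read from these side by side, since the peaks chose the genes. With each list cut to its 14662 widest peaks, 13 of 24 hnRNPA1 peaks named for the members came from Zhx1-KO (54.2%), where the whole lists give 50% by construction. The intervals cover counting error only, with 1 library per group.

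Distances to the nearest peak of another list were of the same order as elsewhere. Control hnRNPA1 peaks within the members stood a median of 8.86 kb from the nearest Zhx1-KO hnRNPA1 peak and 21.1 kb from the nearest ZHX1 peak, against 13.3 and 28.4 kb for all control hnRNPA1 peaks within protein-coding genes. ZHX1 peaks within the members stood a median of 56.4 kb from the nearest control hnRNPA1 peak, against 44.0 kb. No test was made of these medians.

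The peaks lay in introns more than those of other genes. Of the 123 peaks within the members, 111 were intronic (90.2%), compared with 75.2% of all peaks within protein-coding genes, and 9 touched coding sequence (7.32%, interval 3.90 to 13.3%), compared with 16.2%. A total of 13 lay within 2 kb of any annotated start (10.6%, interval 6.28 to 17.2%), against 24.3%. The members are longer than most genes, and the part of length in these shares was not tested. Multi-copy sequence held 16 of the 123 (13%, interval 8.17 to 20.1%), against 16.2% of all peaks within protein-coding genes. By list, it held 0 of the 22 from control hnRNPA1 (interval 0 to 14.9%), against 13.3% of that list's peaks within protein-coding genes.

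Motifs were counted over the same 123 peaks. TAGGG stood in 47 of the 123 peaks (38.2%, interval 30.1 to 47.0%) against 34.3% of peaks within protein-coding genes, GATA in 83 (67.5%) against 64.7%, a G-quadruplex motif in 4 (3.25%) against 6.48%, and a CArG box, the site of SRF, in 2 (1.63%) against 1.23%. CCAAT stood in 48 (39.0%) against 32.5%, and by list in 14 of 32 ZHX1 peaks, 12 of 22 control hnRNPA1 peaks and 22 of 69 Zhx1-KO hnRNPA1 peaks. The control hnRNPA1 share of 54.5% had an interval of 34.7 to 73.1%. The same list had CCAAT in 32.4% of its peaks within protein-coding genes and in 36.3% of all its peaks. By name the share was 6 of 11, with an interval of 28.0 to 78.7%. This was 1 of many shares by motif and list, and no allowance was made for that. A match describes the letters in a peak and is not a bound site. In the RefSeq promoter windows, 250 bases before to 50 after a start, 13 windows of 7 members were found, and 7 of the 13 held a G-quadruplex motif against 18.6% of all 32851 windows. TAGGG stood in 2 of the 13 against 36.3%, CCAAT in 3 against 37.4% and GATA in 6 against 57.9%, and no window of a member held a CArG box, which 1.63% of all windows did. Windows of the same gene were counted apart and are not independent. They are not peaks, and no interval or test was made for them.

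Of the 16 other voltage-gated calcium channel genes, 12 had a named ZHX1 peak, 7 carried one of control hnRNPA1 and 11 one of Zhx1-KO hnRNPA1, with 23, 13 and 43 peaks in all. The shares over all protein-coding genes were 40.4%, 31.1% and 57.6%. By position these 16 genes held 1.41, 0.705 and 2.63 peaks per 100 kb. The members pooled held fewer in each list, at 0.963, 0.662 and 2.08. The median per gene ran the other way in each list, at 0.895, 0.405 and 2.15 in the members against 0.754, 0 and 1.95. The median gene length was 317 kb in the members and 51.3 kb in these 16, and neither difference in density was tested. Among the pore genes, Cacna1a had 3, 3 and 5 peaks, Cacna1b 3, 2 and 5, and Cacna1e 2, 1 and 7. Cacna1i, the third T-type pore, had 1, 3 and 0, and Cacna1s, the pore of skeletal muscle, 1, 0 and 5. The gamma subunit genes Cacng1 (3, 0 and 6), Cacng2 (4, 1 and 2), Cacng3 (1, 2 and 6) and Cacng5 (2, 0 and 4) followed, with 1, 0 and 1 at Cacng4 and a single peak each at Cacng6 (ZHX1) and Cacng7 (Zhx1-KO). Cacnb1 had 1, 1 and 0 and Cacnb3 a single Zhx1-KO hnRNPA1 peak, while Cacna1f and Cacng8 had none.

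Genes that handle calcium inside the cell and sodium channel genes were counted in the same way. In 22 calcium store and transport genes, the density was 0.881, 0.415 and 1.92 peaks per 100 kb for ZHX1, control hnRNPA1 and Zhx1-KO hnRNPA1, and in 13 sodium channel genes it was 1.24, 0.883 and 2.56. Ryr2, the calcium release channel of heart muscle, had 1, 4 and 6 peaks by name, and Slc8a1, the sodium-calcium exchanger, had 3, 3 and 19. The named counts of Cacna1c were matched exactly by 4 protein-coding genes, Rftn1, Clic5, Tex36 and Cdca7, whose lengths ran from 10.7 to 198 kb. The next nearest in length, L3mbtl4, had 4, 2 and 7 and was 1 of 35 genes at a difference of 1 peak.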

How the data were processed

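ChIP-seq of ZHX1 and hnRNPA1 was available from 46C-Ctrl CP cells and of hnRNPA1 from Zhx1-KO CP cells, with 1 library per group; 2 inputs were not analysed here. Groups were taken from the sample titles. The authors trimmed read pairs (cutadapt 1.18, at least 50 bases kept), aligned what was left to GRCm38 with Bowtie2 2.3.5.1, and kept uniquely placed reads free of duplicates. BWA 0.7.12-r1039 and deepTools 3.3.0 also stand in the submitters' processing notes. Peak caller, threshold, use of the inputs and origin of the gene names: not given in the sources used here. The deposited lists give each peak a position and a gene name, with no score, signal or count, so depth is unknown and peak width took the place of a score.

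The 10 genes and the lists of other genes were chosen with earlier results of these data known. All 10 were named, with every other calcium channel gene on the list and Ryr2 and Slc8a1. Another gene fixed for naming in the same way is not reported here. For Cacna1c, the 5 protein-coding genes with the nearest named counts were named, ties broken by length. Neighbouring genes were named where a peak lay in them or carried their name. Oas1e and H1fx were named after their values were seen. Peaks were placed on GENCODE M21 genes. An overlap was at least 1 bp, and a promoter 2 kb to either side of any annotated start. For copy number, every 32-base word of a peak was counted in GRCm38 on both strands, and a median count of 2 or more was called multi-copy. Shares carry Wilson 95% intervals. No test was possible with 1 library per group. The work ran in Python 3.11.15 with scipy 1.17.1, pandas 2.3.3, numba 0.67.0, numpy 2.4.6 and, for plots, matplotlib 3.10.9, and overlap, motif and word counting were tested on simulated data. Alternatives were assignment by position, the gene with 10 kb to either side, lists cut to the widest peaks, other promoter windows, peaks below 2 copies and motifs in the central 200 bases.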

Additional observations from a re-analysis of the deposited data

How the results depend on the processing

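No paired analysis was possible because each group was 1 library, and for the same reason no replicate could be left out. Of 74 alternative values of 31 results, 50 stayed near the reported value, meaning within 1.5 times for a count and within the reported value's Wilson 95% interval for a share. Counting by position gave 32 ZHX1, 22 control hnRNPA1 and 69 Zhx1-KO hnRNPA1 peaks in place of the 19, 11 and 44 by name, and 33, 24 and 74 with 10 kb added to either side of the gene. Dropping peaks at the smallest width of a list left 9, 7 and 29. With each list cut to its 14662 widest peaks, ZHX1 kept 9 and Zhx1-KO hnRNPA1 13, and the Zhx1-KO share of hnRNPA1 peaks was 54.2%, a shift that equal list lengths bring with them. Overlapping pairs of ZHX1 and control hnRNPA1 went from 0 to 1 by position and to 2 with edges within 1 kb. For the 2 hnRNPA1 lists they went from 0 to 1 within 1 kb, and for ZHX1 and Zhx1-KO hnRNPA1 from 1 to 4 within 1 kb, to 0 by position and to 0 among peaks below 2 copies. Named peaks within 2 kb of a start (2, 1 and 3) became 1 for ZHX1 within 1 kb, 2 for control hnRNPA1 and 9 for Zhx1-KO hnRNPA1 within 5 kb, and 0, 0 and 1 at the most upstream start of each gene. Those limits are wide for so few peaks: members with a ZHX1 peak went from 6 to 9 by position and to 4 at equal list lengths, members with a Zhx1-KO hnRNPA1 peak from 9 to 6 at equal list lengths, and in the central 200 bases of named Zhx1-KO hnRNPA1 peaks CCAAT went from 29.5% to 18.2% and the G-quadruplex motif from 4.55% to 2.27%. With no read counts, what depth limits could not be computed.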
